A study of Mus musculus with 18 samples.

Results

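The 10 genes described here move lactate and pyruvate across membranes and convert them into each other or into acetyl-CoA: Slc16a1, Slc16a3, Slc16a7, Bsg, Ldha, Ldhb, Mpc1, Mpc2, Pdha1 and Pdk2. They were taken by name from a table of 21923 genes, and all 10 had a row and passed the filter on low counts. The study purified the ribosome-bound RNA of cortical astrocytes from GLUT1 cKO and control mice by translating ribosome affinity purification (TRAP), in which an EGFP-tagged ribosomal protein is pulled down with the RNA it holds. The cKO mice are labelled GLUT1 flox/flox;GLAC +/wt, and the controls WT and GLAC +/wt. Both groups carried the tamoxifen-inducible Cre driven by the GLAST promoter, and both received an AAV with EGFP-L10a under the hGFAP promoter and, 7 days later, tamoxifen on 5 consecutive days at an age of 8 to 10 weeks. RNA was collected 60 days after tamoxifen from male C57BL/6 mice kept in their home cage. Recombination therefore depends on GLAST-driven Cre in each cell, and the immunoprecipitate (IP) reports cells in which both Cre and the AAV were active.

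The labels list 4 cKO and 5 control IP samples, each from its own mouse, of which 4 cKO and 3 control libraries could be tied to a genotype and are analysed here. The control libraries are called 11, 15 and 19, and the cKO libraries 1, 5, 9 and 17. Input RNA and the other 2 control IP samples are not analysed here. The study excluded a sample with very few reads, and IP samples with high expression of neuronal genes. The libraries named in its source data may be those left after this step. Total estimated counts ran from 19294382 to 40734343 in the controls and from 12570309 to 24173901 in the cKO. By these totals 3 counts corresponded to 0.0736 to 0.239 CPM, the count scaled to a fixed library total. The levels given below are CPM after a further scaling between libraries (TMM), unless stated otherwise. Slc2a1, which encodes GLUT1, stood at 59.5 ± 2.02 CPM (SD, n = 3) in control and 59.0 ± 2.30 CPM (SD, n = 4) in cKO libraries (exact permutation test, two-sided, p = 0.857). The count covers the whole gene, floxed exons included, and showed no fall in the libraries taken as cKO. The deletion was thus not visible in these whole-gene counts. The study itself reports fewer reads over a subset of the Slc2a1 exons in cKO than in control IP samples. By qPCR it also reports less Slc2a1 RNA in cKO than in control IP samples. It further reports less GLUT1 protein in capillary-depleted brain tissue by western blot, and a lower GLUT1 signal in brain sections by immunolabelling. Counts per exon were not available here. The genotypes of the libraries come from the sample names in the study's source data for that exon measure, and were not checked by the whole-gene counts. The astrocyte markers summed to 28290 to 43660 CPM in control and 27960 to 54820 CPM in cKO libraries. Aldoc was the largest term of this sum, at 17036 to 27622 CPM in control and 15321 to 37440 CPM in cKO libraries. The neuronal markers summed to 2790 to 3365 CPM in control and 2338 to 3501 CPM in cKO libraries. Oligodendrocyte markers were also present, at 607.6 to 635.4 CPM in control and 386.1 to 601.3 CPM in cKO libraries. These ranges did not overlap, and 0 of 8 of these markers had a fold change above 0, although 0 of 8 passed the test. The part of these markers in the results below was not tested. Endothelial markers summed to at most 31.3 CPM, and Pecam1, Slco1a4, Abcb1a, Cdh5 and Tek were at 0 in at least 1 library. Microglial markers reached at most 103.6 CPM and mural markers at most 63.7 CPM.

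Lactate and pyruvate sit where glycolysis meets the mitochondrion. Lactate dehydrogenase converts pyruvate and lactate into each other, monocarboxylate transporters (MCTs) carry both across the plasma membrane together with a proton, the mitochondrial pyruvate carrier takes pyruvate into the matrix, and pyruvate dehydrogenase turns it into acetyl-CoA unless a kinase has switched it off. In the brain, astrocytes are known as glycolytic cells that can release lactate.

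The promoters of the lactate dehydrogenase genes are shown because the level of each gene went with the astrocyte marker level of the library, as described further on. These relations did not pass when any 1 library was left out, or without Aldoc and Gfap in the marker list. The window of Pdha1, which passed by Pearson's r only, is not printed and holds 0 ACGTG. A part of the promoters in the relations was not tested. Each line gives 300 bases of RefSeq sequence (GRCm38.p6) from 250 before to 50 after an annotated start, 5′ to 3′ on the strand of the gene. Capitals mark ACGTG on either strand, a form of the core of the hypoxia response element. The other form, GCGTG, was neither marked nor counted, and occurs in both sequences below. Ldha is at chr7:46845554-46845853 on the plus strand and Ldhb at chr6:142507908-142508207 on the minus strand.
Ldha: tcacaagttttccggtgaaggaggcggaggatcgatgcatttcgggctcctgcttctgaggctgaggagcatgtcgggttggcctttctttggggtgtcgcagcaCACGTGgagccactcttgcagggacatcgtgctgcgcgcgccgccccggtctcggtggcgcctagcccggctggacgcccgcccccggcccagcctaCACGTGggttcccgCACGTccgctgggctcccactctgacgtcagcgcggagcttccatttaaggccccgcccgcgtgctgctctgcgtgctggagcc
Ldhb: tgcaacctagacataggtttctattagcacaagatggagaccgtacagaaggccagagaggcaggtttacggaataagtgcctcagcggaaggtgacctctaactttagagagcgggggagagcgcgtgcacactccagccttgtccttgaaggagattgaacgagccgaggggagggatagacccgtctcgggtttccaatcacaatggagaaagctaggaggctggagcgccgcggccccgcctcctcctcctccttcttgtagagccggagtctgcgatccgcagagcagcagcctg
ACGTG occurred 5 times in this Ldha window, counting both strands, so that each CACGTG counts on both, and 0 times in the Ldhb window. RefSeq gives Ldha a second start, and ACGTG occurred 0 times in that window (chr7:46846832-46847131). There were 11 windows for 8 of the 10 genes, and none for Bsg and Slc16a7. ACGTG was in 4 of the 11 windows (1 each of Slc16a1, Slc16a3, Ldha and Pdk2), against 19.6% of all 32851 windows. GGGCGG, a GC box, was in 6 of the 11, against 35.7% of all windows, and TATAAA in 0 of the 11, against 13.6%. ACGTG and GGGCGG both contain CG, and TATAAA does not. The 11 windows held 13 to 42 CG each, against a median of 7 over all windows. The part of this base composition in the shares was not tested. These matches are letters in a window and not measured sites.

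None of the 10 genes passed the test between genotypes. In edgeR's quasi-likelihood test, 0 of 10 passed an adjusted p of 0.05 in either direction, where 0.0376% of all 13296 tested genes were called higher in cKO and 0.00752% lower. The values of cKO and control libraries overlapped for all 10, where they did not for 5.11% of all tested genes. The fitted log2 fold change (cKO against control) was above 0 for 4 genes and below 0 for 6, with a median of -0.01 against 0.01 over all tested genes. The lowest unadjusted p was 0.368, for Pdk2, and the adjusted p was 0.9996 for each of the 10 (edgeR, Benjamini-Hochberg over all tested genes). A p that misses the threshold does not show equal levels, and the intervals below give the differences that these libraries leave possible. In such bulk samples, fewer cells of a type and less RNA per cell cannot be told apart.

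**Figure D1:**
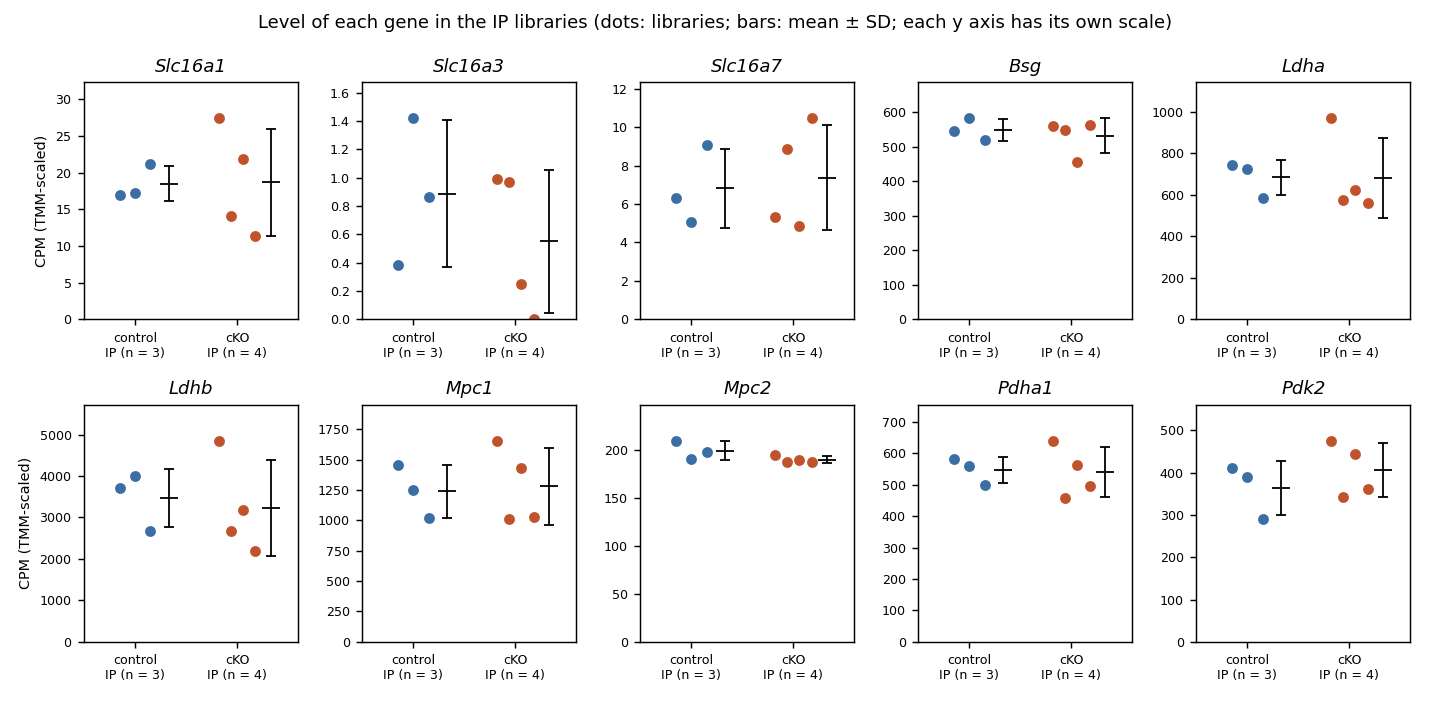
TMM-scaled CPM (y axes, each with its own scale from 0) of the 10 genes in 3 control IP and 4 cKO IP libraries; dots are libraries and bars the mean ± SD. The cKO dots overlap the control dots in every panel, and cKO library 1 is the highest dot for Slc16a1, Ldha, Ldhb, Mpc1, Pdha1 and Pdk2.

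The MCTs come first. CPM is not corrected for gene length, so levels of different genes were not ranked. Slc16a1 (chr3:104638664-104658462, GRCm38.p6 as for all positions here) encodes MCT1, which astrocytes and endothelial cells are known to use. It had 16.97, 17.2 and 21.3 CPM in control libraries 11, 15 and 19 and 27.4, 14.1, 21.9 and 11.3 CPM in cKO libraries 1, 5, 9 and 17. The highest and the lowest library were both cKO, and the control values lay between them. The log2 fold change was 0.02 (SE 0.29, 95% interval -0.63 to 0.66).

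Slc16a7 (chr10:125219270-125389586) encodes MCT2, the high-affinity transporter best known from neurons. It had 6.30, 5.09 and 9.09 CPM in the control libraries and 5.31, 8.87, 4.87 and 10.4 CPM in the cKO libraries, in the same order. cKO libraries 5 and 17, low in Slc16a1, were high in Slc16a7. The log2 fold change was 0.11 (SE 0.37, 95% interval -0.72 to 0.94).

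Slc16a3 (chr11:120948484-120959000) encodes MCT4, a low-affinity transporter known for lactate export from glycolytic cells. Its estimated counts, rounded to whole numbers, were 15, 39 and 18 in the control libraries and 16, 25, 5 and 0 in the cKO libraries. At this depth the gene was barely sampled, and the 0 in library 17 allows up to 0.239 CPM before TMM scaling, for counting error only. The log2 fold change of -0.66 had an SE of 1.12 and a 95% interval from -3.13 to 1.81, so even a large change in either direction was not detectable.

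Bsg (chr10:79704358-79711979) encodes basigin, the glycoprotein that brings MCT1 and MCT4 to the cell surface. It had 544, 581 and 519 CPM in the control and 559, 548, 455 and 562 CPM in the cKO libraries. Library 9 was the lowest of all, and the other cKO libraries lay within the control range. The log2 fold change was -0.05 (SE 0.13, 95% interval -0.33 to 0.24).

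The lactate dehydrogenase subunits had high counts in every library. Ldha (chr7:46842274-46855627) encodes the subunit known to predominate in glycolytic tissue, and had 742, 723 and 584 CPM in the control and 967, 575, 622 and 561 CPM in the cKO libraries. Library 1 stood above all others, and the other 3 cKO libraries were below controls 11 and 15. The log2 fold change was -0.0036 (SE 0.20, 95% interval -0.45 to 0.44).

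Ldhb (chr6:142490249-142507957) encodes the subunit known from oxidative tissue. It had 3720, 3997 and 2665 CPM in the control and 4846, 2674, 3190 and 2183 CPM in the cKO libraries. Again library 1 was the highest, and library 17 the lowest. The log2 fold change was -0.10 (SE 0.26, 95% interval -0.67 to 0.47). RefSeq names 3 pseudogene copies of Ldha, 1 of Ldhb and 1 of Mpc1, and 0 of them are rows of the table. Whether reads shared with these copies enter the levels of the 3 genes was not tested, so the levels carry this uncertainty.

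Mpc1 and Mpc2 encode the subunits that together form the mitochondrial pyruvate carrier. Mpc1 (chr17:8283787-8297667) had 1453, 1253 and 1016 CPM in the control and 1656, 1010, 1431 and 1026 CPM in the cKO libraries. Mpc2 (chr1:165461260-165481218) had 209.7, 190.4 and 198.0 CPM in the control and 195.4, 187.5, 190.0 and 187.4 CPM in the cKO libraries. Mpc2 had an SD of 9.73 CPM around a mean of 199 CPM in control and of 3.71 CPM around 190.1 CPM in cKO libraries. The SD of Mpc1 was 219 CPM around 1241 CPM and 317 CPM around 1281 CPM. The log2 fold changes were 0.05 for Mpc1 (SE 0.20, 95% interval -0.41 to 0.50) and -0.07 for Mpc2 (SE 0.11, 95% interval -0.30 to 0.17).

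Pdha1 (chrX:160122219-160138430) encodes the catalytic alpha subunit of pyruvate dehydrogenase, and Pdk2 (chr11:95026258-95041371) a kinase that inactivates the enzyme by phosphorylating that subunit. Pdha1 had 582, 559 and 501 CPM in the control and 640, 459, 565 and 496 CPM in the cKO libraries. Pdk2 had 411, 390 and 290 CPM in the control and 475, 342, 445 and 361 CPM in the cKO libraries. Library 19 was the lowest for Pdk2, below all 4 cKO libraries, and without it the log2 fold change of Pdk2 was 0.017. The log2 fold changes were -0.02 for Pdha1 (SE 0.14, 95% interval -0.34 to 0.30) and 0.16 for Pdk2 (SE 0.17, 95% interval -0.21 to 0.53).

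**Figure D2:**
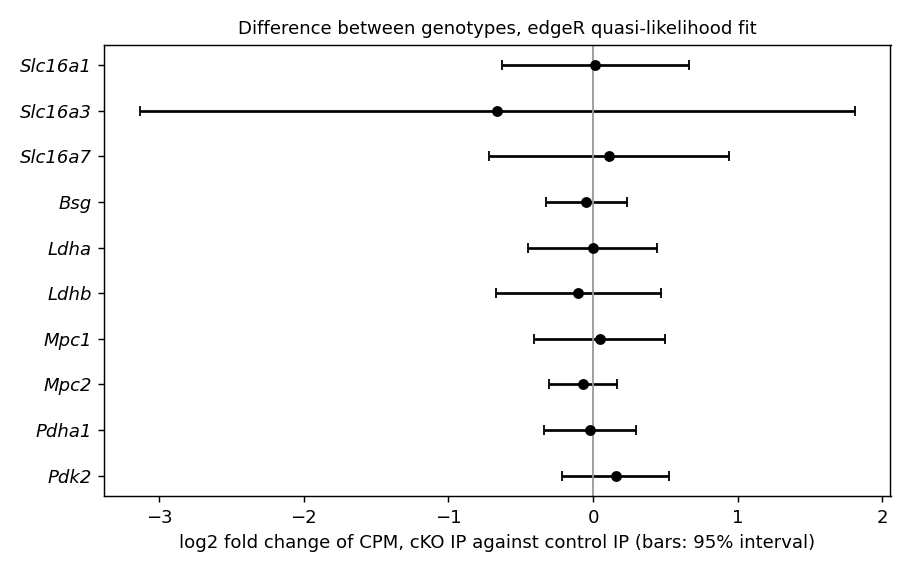
Log2 fold change of cKO IP against control IP (x axis) for the 10 genes (y axis) from edgeR's quasi-likelihood fit; dots are estimates and bars 95% intervals. Every interval includes 0, and the widest is that of Slc16a3, from -3.13 to 1.81.

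The balance of functionally paired genes was compared within each library as the log2 ratio of their counts (pseudocount 0.5), which does not depend on the scaling between libraries. The exact two-sided permutation p is the doubled smaller tail, whose smallest value with 3 against 4 libraries is 0.0571, and was adjusted over the 5 ratios. This definition was adopted after the ratios had been seen, in place of the share of the 35 arrangements with at least the observed size of difference, whose smallest value is 0.0286. Ldha to Ldhb was -2.33 ± 0.14 (SD, n = 3) in control and -2.22 ± 0.18 (SD, n = 4) in cKO libraries (exact permutation p = 0.514, adjusted p = 1). Per Ldhb count there were 0.200, 0.181 and 0.219 Ldha counts in the control and 0.200, 0.215, 0.195 and 0.257 in the cKO libraries. Library 17 had the most Ldha per Ldhb and library 15 the least.

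Slc16a7 to Slc16a1 was the most variable balance. It was -1.47 ± 0.27 (SD, n = 3) in control and -1.33 ± 1.11 (SD, n = 4) in cKO libraries (exact permutation p = 0.857, adjusted p = 1). Per Slc16a1 count there were 0.371, 0.295 and 0.428 Slc16a7 counts in the control and 0.194, 0.631, 0.222 and 0.922 in the cKO libraries. All 3 controls lay between the low pair of cKO libraries, 1 and 9, and the high pair, 5 and 17. Bsg to Slc16a1 was 4.89 ± 0.25 in control and 4.91 ± 0.65 in cKO libraries (exact permutation p = 1, adjusted p = 1), with the same split of the cKO libraries. Both ratios are taken per Slc16a1 count, so this split is not a separate observation.

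Mpc2 to Mpc1 was -2.62 ± 0.23 in control and -2.72 ± 0.33 in cKO libraries (SD, n = 3 and n = 4; exact permutation p = 0.629, adjusted p = 1). Pdk2 to Pdha1 was -0.60 ± 0.16 (SD, n = 3) in control and -0.41 ± 0.05 (SD, n = 4) in cKO libraries. Per Pdha1 count there were 0.707, 0.697 and 0.579 Pdk2 counts in the control and 0.743, 0.745, 0.788 and 0.728 in the cKO libraries. All 4 cKO libraries were above all 3 controls, the only ratio of the 5 whose groups did not overlap. The difference of 0.19 had an exact permutation p of 0.0571 and an adjusted p of 0.286. By the first definition, the exact permutation p was 0.0286 and the adjusted p 0.143. Each unadjusted value is the smallest its definition can give, and the difference passed the adjusted threshold under neither. Control library 19 had the lowest ratio, and without it the difference was 0.097.

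**Figure D3:**
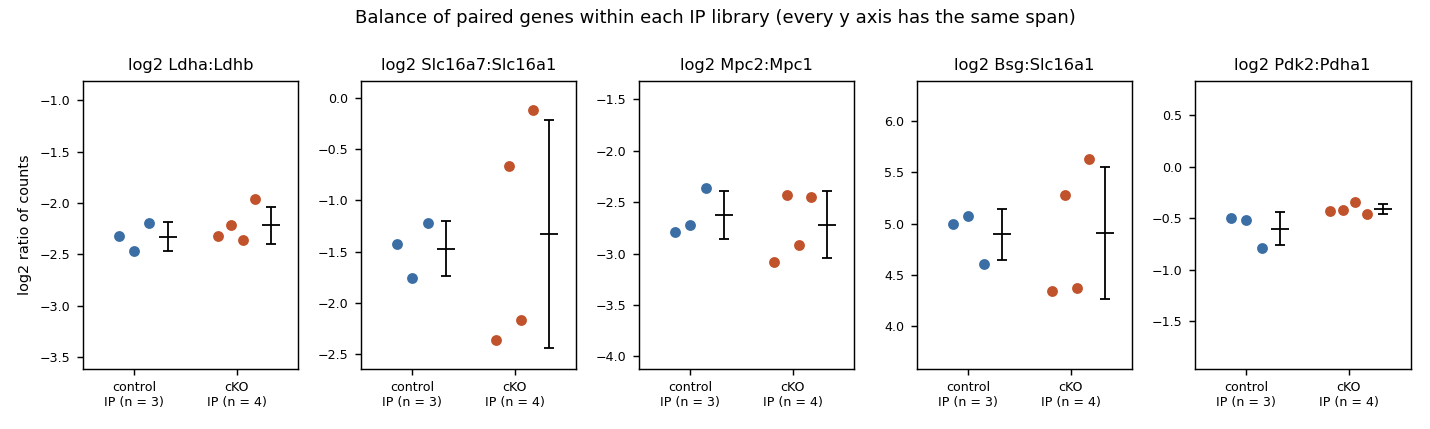
Log2 ratio of counts (y axes, all of equal span) of 5 gene pairs in 3 control IP and 4 cKO IP libraries; dots are libraries and bars the mean ± SD. The cKO libraries split into a low and a high pair for Slc16a7 to Slc16a1, and lie above the controls for Pdk2 to Pdha1.

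Other genes of pyruvate and lactate handling were counted from a list of 28, of which 21 passed the filter on low counts. Of these, 0 passed the test in either direction, against 0.0376% of all tested genes called higher and 0.00752% lower. The log2 fold change was above 0 for 9 and below 0 for 12, with a median of -0.04 and a range of -0.94 to 0.73. The lowest unadjusted p was 0.0793 (edgeR). Pkm, the pyruvate kinase that makes pyruvate in the last step of glycolysis, had 1545 to 2088 CPM in control and 1435 to 2433 CPM in cKO libraries, and a log2 fold change of -0.11 (SE 0.20). Among the other genes of the pyruvate dehydrogenase complex, 4 of 5 were tested and 0 passed. The log2 fold change was -0.04 for Pdhb (SE 0.15), -0.17 for Dlat (SE 0.15) and -0.15 for Dld (SE 0.18). Among the 6 regulators of the complex in the list, 3 had a fold change above 0 and 3 below, and 0 passed. Gpt2, a mitochondrial alanine transaminase that interconverts pyruvate and alanine, had -0.07 (SE 0.23), and Me1, the cytosolic malic enzyme that makes pyruvate from malate, 0.27 (SE 0.21). Slc16a8, Slc5a8, Slc5a12, Ldhc, Ldhal6b, Hcar1 and Pdha2 did not pass the filter. Among these, Slc5a12 and Pdha2 had 0 CPM in all 7 libraries, and the highest level of any was 1.16 CPM, for Slc16a8 in cKO library 5.

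Over the 7 libraries, the level of some of the 10 genes went with the marker level of the library. These relations were computed after the values had been seen, as 20 relations of the 10 genes with the mean log2(CPM + 0.5) of 8 astrocyte and of 8 neuronal markers over the 7 libraries, and 4 passed the correction over the 20 by Pearson's r and 2 by Spearman's rho. Ldhb followed the astrocyte markers with r = 0.968 and rho = 0.964 (permutation p = 7.937e-04, adjusted p = 0.0159, and p = 0.00278, adjusted p = 0.0278, exact over all pairings). Without the 2 libraries farthest from the median, 1 and 15, r was 0.928. Ldha gave r = 0.944 and rho = 0.964 (exact permutation p = 0.00278 and adjusted p = 0.0278 for both), and r = 0.992 without those libraries.

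Pdha1 gave r = 0.887 and rho = 0.857 with the astrocyte markers (exact permutation p = 0.00754 and 0.0238, adjusted p = 0.0397 and 0.114), and r = 0.888 without libraries 1 and 15. With the neuronal markers Pdha1 gave r = -0.872 and rho = -0.786 (exact permutation p = 0.00794 and 0.0480, adjusted p = 0.0397 and 0.12), and r = -0.969 without libraries 5 and 9. Slc16a7 ran the other way, with r = 0.855 and rho = 0.821 with the neuronal markers (exact permutation p = 0.0214 and 0.0341, adjusted p = 0.0714 and 0.114), and did not pass. The 2 marker means were themselves related with r = -0.654 and rho = -0.679 (exact permutation p = 0.114 and 0.11, and r = -0.621 without libraries 1 and 15). All these values share the libraries and their scaling, and with 3 and 4 libraries no relation could be given within a genotype. The study's exclusion of IP samples high in neuronal genes may also have narrowed the range of the neuronal markers. Without Aldoc and Gfap in the astrocyte list, 0 of 20 passed, with r = 0.867 for Ldhb, 0.817 for Ldha and 0.776 for Pdha1. Scaled by library size only, 1 passed by Pearson's r, that of Ldhb (r = 0.924), and Pdha1 fell to r = 0.425.

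**Figure D4:**
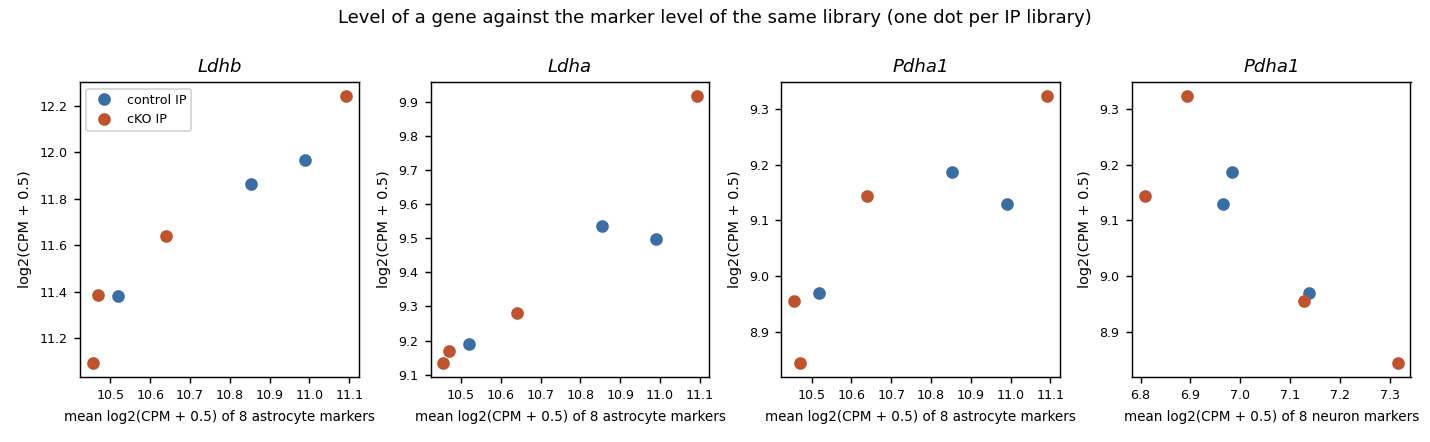
Log2(CPM + 0.5) of Ldhb, Ldha and Pdha1 (y axes) against the mean log2(CPM + 0.5) of 8 astrocyte or 8 neuronal markers (x axes), 1 dot per IP library, for the 4 relations that passed by Pearson's r. The dots rise with the astrocyte markers and fall with the neuronal markers, and control and cKO dots are mixed along the range.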

How the data were processed

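RNA was measured in TRAP immunoprecipitates of mouse cortex (Smart-seq2). The authors trimmed reads with cutadapt 1.15 and deposited estimated counts per gene from kallisto 0.44.0 (GRCm38, GENCODE mouse release 17). These were rounded to whole numbers here. Of 18 columns, 7 were used, and their genotype was read from the sample names in the study's source data. The other 11 columns carry neither fraction nor genotype in their names and were not used, so the planned comparison of IP with input was not run. Genes were filtered with filterByExpr, scaled with TMM and tested with edgeR 4.0.16 (quasi-likelihood, R 4.3.3, Benjamini-Hochberg over all tested genes). SEs were computed from the fold change and the F statistic. Ratios and relations were tested by exact permutation. Depth was 12570309 to 40734343 counts per library. The script was tested on simulated data. Alternatives were edgeR's exact test, DESeq2 1.42.0, other scalings, filters and pseudocounts, and leaving out each library.

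The 10 genes and all lists were chosen with earlier results of these data known. All 10 are named, as are, of the pathway list, those past the threshold, the 6 with the highest mean CPM and those that did not pass the filter. The relations with markers, their measure of marker level and the promoter motifs were chosen after seeing the data. The definition of the exact two-sided p was also changed after the ratios had been seen, from the share of arrangements with at least the observed size of difference to the doubled smaller tail. Under the first definition Pdk2 to Pdha1 had an exact permutation p = 0.0286 and an adjusted p of 0.143. Gene lengths were not used here, so levels of different genes were not compared.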

Additional observations from a re-analysis of the deposited data

Results flagged for a closer look

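Within the 4 cKO libraries, 1 library stood far from the others for 2 of the 22 sets of values examined, where chance gives about 1.1. Bsg was at 455.1 CPM in library 9, against 547.8 to 561.7 CPM in the other 3. Ldha was at 966.9 CPM in library 1, against 561.1 to 621.7 CPM. Library 1 also had the highest summed astrocyte markers, 54820 CPM, of which Aldoc alone held 37440 CPM. Library 9 had the lowest summed neuronal markers, 2338 CPM. The part of the marker levels in these values was not tested.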

How the results depend on the processing

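In every alternative fit 0 of the 10 genes and 0 of the pathway genes passed. The number of all tested genes that passed, 6, became 18 with edgeR's exact test and 21 with DESeq2, and 4 to 6 leaving out each library; the cause was not tested. The direction of several near-zero fold changes turned, none past the threshold. Slc16a1 was -0.018 with library size only. Scaled to 4 astrocyte markers, Bsg was 0.031, Ldha 0.048, Mpc2 0.013 and Pdha1 0.052, and Slc2a1 was 4.19% higher in cKO. Leaving out each library in turn, the log2 fold change ran from -0.23 to 0.19 for Slc16a1, -0.10 to 0.37 for Slc16a7, -0.086 to 0.015 for Bsg, -0.22 to 0.079 for Ldha, -0.37 to 0.045 for Ldhb, -0.10 to 0.17 for Mpc1 and -0.11 to 0.050 for Pdha1. It kept its sign for Pdk2 (0.017 without library 19 to 0.25 without library 11), Slc16a3 (-1.08 without library 5 to -0.15 without library 15) and Mpc2 (-0.10 to -0.032). The difference in Slc2a1 ran from -2.60% to 0.79%. The ratio differences ran from -0.26 to 0.49 for Slc16a7 to Slc16a1, -0.19 to 0.036 for Mpc2 to Mpc1, -0.23 to 0.20 for Bsg to Slc16a1, 0.027 to 0.18 for Ldha to Ldhb and 0.097 to 0.24 for Pdk2 to Pdha1. A minimum of 1 CPM left 9 of the 10 genes tested. Further alternatives for the marker relations were added after seeing the data. With the summed CPM of the markers, 2 of the 20 passed by Pearson's r (Ldha and Ldhb). Aldoc was the largest term of the astrocyte sum, and 0 of 20 passed without Aldoc and Gfap in the marker mean. By Pearson's r, 4 passed with RLE scaling and 0 without any 1 library. With 6 libraries a relation can pass the correction over 20 only together with another of low p, so passing is hard but was not excluded. Without any 1 library, the adjusted p (exact permutation) ran from 0.0556 to 0.111 for Ldhb and from 0.0556 to 0.148 for Ldha. Over the same runs, r ran from 0.946 to 0.986 for Ldhb and from 0.933 to 0.990 for Ldha. No paired analysis was possible because the columns carry no replicate number. Depth limits Slc16a3 most, with 0 to 39 counts.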
